A study of Mus musculus with 6 samples.

Results

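The mitochondrial respiratory chain was examined as the genes whose symbol in the array annotation begins with Nduf, Uqcr, Cox4 to Cox8 or Atp5, or is Sdha, Sdhb, Sdhc or Sdhd. Of the 22180 genes measured, 89 matched. They comprised 32 subunits of complex I, 8 complex I assembly factors, 4 subunits of complex II, 7 of complex III, 17 of complex IV, the paralogs Ndufa4 and Ndufa4l2, 17 genes of the ATP synthase and the pseudogenes Atp5c1-ps and Uqcrh-ps1. A further 9 matching symbols, among them Cox6c, Ndufs6 and Uqcr10, lie only on probe sets that name several genes and were not analysed. RNA was hybridised to Affymetrix Mouse Gene 2.0 ST arrays, 1 library for each of 6 groups, so differences could be neither tested nor checked against replicates. The groups, all labelled strain DBA/2J and female, were cardiomyocytes from adult mouse heart, cardiomyocytes from neonatal mouse heart, and mouse induced pluripotent stem (iPS) cells in 4 states. Of these, 3 were at day 7 of cardiac differentiation, after 5 days in suspension as embryoid bodies and plating with 1% DMSO and 100 ng/ml NRG-1, with 100 ng/ml NRG-1 alone, or with 1% DMSO alone, and the last was undifferentiated and kept with feeder cells, serum and LIF. The set has no culture at day 7 without an added agent, and the labels give neither the age of the adult mice nor how many animals or dishes a library pooled.

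The respiratory chain sits in the inner mitochondrial membrane. Complexes I and II pass electrons from NADH and succinate to ubiquinone, complex III passes them to cytochrome c, and complex IV, cytochrome c oxidase, passes them to oxygen, while the ATP synthase (complex V) uses the proton gradient so formed to make ATP. Heart muscle depends on this chain for most of its energy and carries its own isoforms of several complex IV subunits, whereas pluripotent cells are known for relying more on glycolysis. Heart cells respond to NRG-1, neuregulin 1, through their ERBB receptors.

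Values are log2 expression from RMA, a method that makes the distributions of the arrays nearly equal, so 1 unit of difference is a 2-fold ratio, and only shifts relative to other genes can be seen. A gene passed the filter in a comparison when the higher of its values reached the median of the whole table (5.20), which 83 of the 89 members did in at least 1 library. The other 6 were Cox7b2, Cox8b, Cox8c, Ndufs5 and both pseudogenes, which are dim throughout. Probe sets were compared only with themselves across libraries, because their brightness is not set per length. Marker genes of cell types differed between the groups, though not always along their labels. The mean level of 6 fibroblast markers was 11.61 in the adult and 11.00 in the neonatal library, between 8.87 and 9.43 in the cultures, and 7.01 in iPS cells. The mean of 9 cardiomyocyte markers was 5.68 in the adult library, 6.57 in the neonatal library and between 6.44 and 6.92 in the cultures. iPS cells had 5.70, so by this mean the adult library stood no higher than iPS cells for genes that define its labelled cell type. Single markers split, with 4 of the adult values above iPS cells and 5 below. Only Tnnt2 was at least 2-fold higher, at 8.22 against 6.35 in iPS cells, and none was 2-fold lower. Macrophage markers averaged 7.13 in the adult library, 5.72 in the neonatal library, 6.10 to 6.28 in the cultures and 5.11 in iPS cells. All 6 reached the table median only in the adult library, while Cd68, at 10.90 to 11.30, and Csf1r, at 8.04 to 8.21, were higher in the cultures than in the adult library (8.82 and 6.25). The Y-linked gene Eif2s3y had 8.15 and 6.20 in the adult and neonatal libraries, against at most 3.32 in the others, which goes against their labels as female. Xist, the RNA of the inactive X chromosome, had 3.39 in the adult library, 8.78 in the neonatal library, 6.49 to 6.91 in the cultures and 5.97 in iPS cells, so the neonatal library was high for both genes and the adult library for Eif2s3y alone. The comparisons among the 3 cultures use neither of these libraries. In bulk RNA, fewer cells of a type and less RNA per cell cannot be told apart, and the part of these markers in the results below was not tested.

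Each group was first set against undifferentiated iPS cells to ask how expression of the chain differed after differentiation or in heart-derived cells. Most members were modestly lower than in iPS cells in all of these comparisons, by well under 2-fold. The median difference over the 89 members was -0.21 for the adult library, -0.22 for the neonatal library, -0.45 with DMSO and NRG-1, -0.32 with NRG-1 alone and -0.36 with DMSO alone, beside medians of all genes between -0.04 and -0.00. Members below their iPS value numbered 71, 67, 81, 64 and 77 in that order. Between 50.1% and 53.6% of all genes were lower in these comparisons. When each library was instead shifted to an equal median of 10 housekeeping genes, the median of all genes moved by 0.22 to 0.38. The member medians then became 0.13, 0.11, -0.19, -0.10 and 0.02, changing sign for the adult, neonatal and DMSO libraries while staying below the shifted medians of all genes. The direction given here is therefore relative to other genes. Probe set disagreement was taken from 492 to 509 genes of the whole array with 2 probe sets each, 6 to 8 of them members. The SD of the gap between their differences, divided by the square root of 2, was between 0.55 and 0.60 in these comparisons. That is the spread of a single probe set, so it bears on single genes and gives no error for a median over 89 members.

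iPS cells had the highest value of the 6 libraries for 48 of the 89 members (53.9%), against 30.3% of the 14579 genes that reached the table median in any library. The lowest value fell in iPS cells for 2 members (2.25%), against 25.8% of those genes. The culture with DMSO and NRG-1 held the lowest value of 28 members (31.5%), against 9.39% of genes. The member counts, unlike the gene shares, include the 6 members that never reached the table median. Of those, Cox7b2 was highest and Uqcrh-ps1 lowest in iPS cells, and Cox8b and Cox8c were lowest with DMSO and NRG-1. All these counts turn on the same 6 values per gene, and 1 library decides each side. The median level of the members was 7.60 and 7.59 in the adult and neonatal libraries, 7.40, 7.63 and 7.54 in the cultures with both agents, with NRG-1 and with DMSO, and 7.93 in iPS cells.

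**Figure D1:**
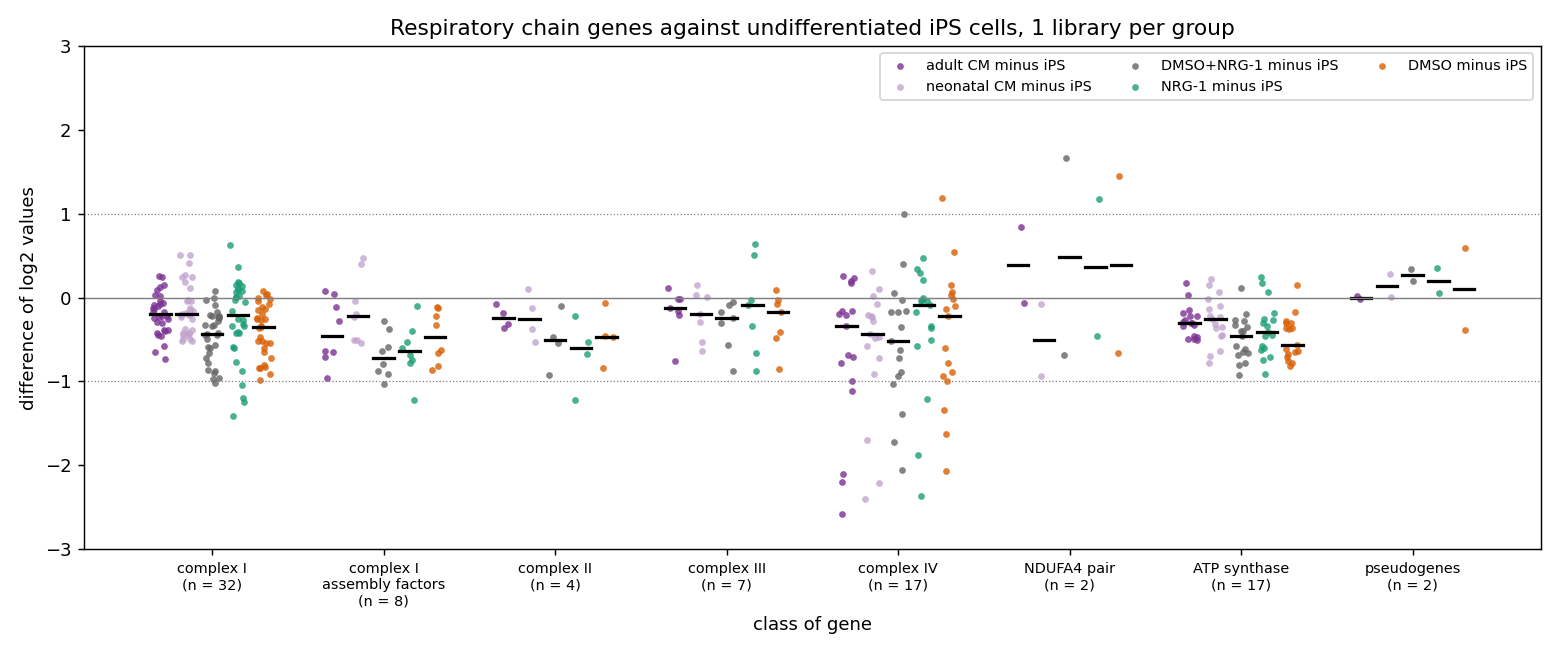
Difference of log2 values from iPS cells for each of the 89 respiratory chain genes (points), by class and library, with the class median as a bar, the dotted lines at 2-fold and 1 library per group. Most points lie between 0 and -1, and the widest spread is in complex IV, down to -2.58 for Cox7a1 in the adult library.

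Few members were 2-fold apart from iPS cells. In the adult library 0 of 83 members passing the filter were at least 2-fold higher (all genes: 13.1%) and 3 lower (all genes: 14.1%). In the neonatal library 0 of 83 were higher (all genes: 13%) and 2 lower (all genes: 11.2%). With DMSO and NRG-1, 2 were higher (all genes: 13%) and 5 lower (all genes: 13.1%). With NRG-1 alone, 1 was higher (all genes: 11.3%) and 8 lower (all genes: 14.5%), and with DMSO alone 2 were higher (all genes: 13.1%) and 2 lower (all genes: 13.3%). The members past 2-fold were Cox7a1, Cox6b2, Cox7b, Cox5a, Cox7c, Ndufa10, Ndufc1, Ndufs1, Ndufs8, Ndufv2, Ndufaf5 and Sdhc on the lower side, and Cox6a2 and Ndufa4l2 on the higher side. All 5 comparisons share the iPS library, so a gene that is high there enters each of them.

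**Figure D2:**
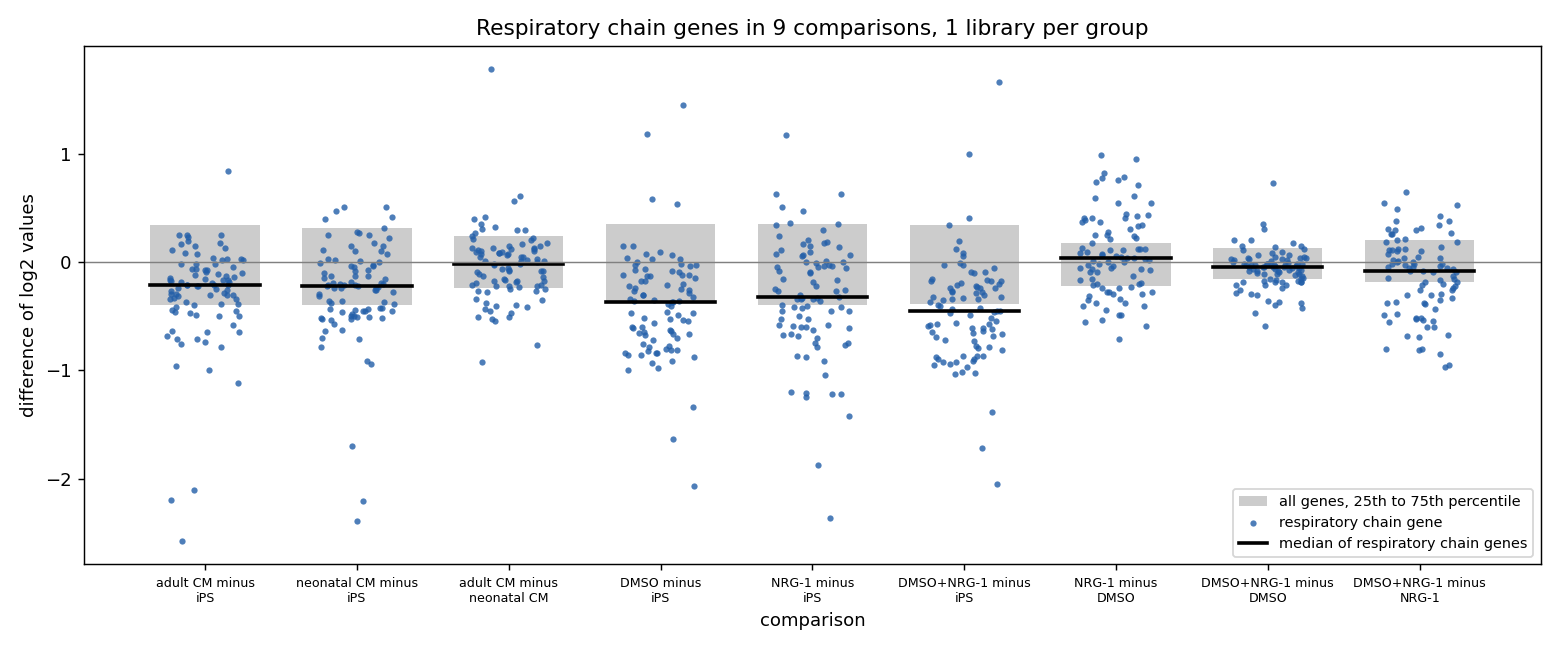
Difference of log2 values for the 89 members (points) in 9 comparisons, with the members' median (bar) and the 25th to 75th percentile of all 22180 genes (grey box), 1 library per group. The member medians run from -0.45 with DMSO and NRG-1 against iPS cells to 0.03 for NRG-1 alone against DMSO alone.

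Complex IV had the widest spread of differences from iPS cells of any class. Its most negative differences were those of tissue isoforms, though Cox5a, Cox7b and Cox7c also passed 2-fold in at least 1 comparison. Mammals encode a heart and skeletal muscle form beside a widely expressed form for several of its nuclear subunits: Cox6a2 beside Cox6a1, Cox7a1 beside Cox7a2, and in rodents Cox8b beside Cox8a. Cox4i2 is a lung-type and oxygen-sensitive form of Cox4i1, and Cox6b2, Cox7b2 and Cox8c are known as testis forms. Cox6a2 and Cox7a1 did not have their highest value in a heart-derived library. Cox8b did, but it was dim everywhere, at 4.56 and 4.41 in the adult and neonatal libraries, 4.21 to 4.37 in the cultures and 4.38 in iPS cells.

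Cox7a1, the muscle form of subunit 7A, was instead brightest in iPS cells. It had 5.49 in the adult library, 5.67 in the neonatal library, 6.02 with DMSO and NRG-1, 6.20 with NRG-1 alone, 6.44 with DMSO alone and 8.07 in iPS cells. The iPS value stood far above the next, and both heart-derived libraries were the lowest. That is 5.96-fold lower in the adult library and 5.26-fold lower in the neonatal library than in iPS cells, and 4.15-fold, 3.66-fold and 3.1-fold lower with both agents, with NRG-1 and with DMSO. Its widely expressed partner Cox7a2 had 8.73 and 8.94 in the adult and neonatal libraries, 8.79, 9.05 and 8.81 in the cultures with both agents, with NRG-1 and with DMSO, and 9.42 in iPS cells, so it was also highest in iPS cells but spanned less than 1 unit. Cox7a2l, a related gene whose protein helps join complexes into supercomplexes, ranged only from 6.85 in the neonatal library to 7.63 with NRG-1 alone, with 7.28 in iPS cells.

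Cox6a2, the muscle form of subunit 6A, was higher in the cultures that received DMSO. It stood at 5.60 in the adult library, 5.68 in the neonatal library, 6.37 with DMSO and NRG-1, 5.84 with NRG-1 alone, 6.56 with DMSO alone and 5.37 in iPS cells. The heart-derived libraries thus lay near the iPS level, and NRG-1 alone lay between them and the DMSO cultures. The difference from iPS cells was 1.00 with both agents and 1.19 with DMSO alone, or 2-fold and 2.27-fold. Its widely expressed partner Cox6a1 moved far less, between 12.64 in the neonatal library and 13.00 with DMSO. The cardiomyocyte markers were also highest in the DMSO cultures, at means of 6.89 with both agents and 6.92 with DMSO, against 6.44 with NRG-1 alone, and the part of such cells in the Cox6a2 values was not tested.

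Of the testis forms, only Cox6b2 reached the table median, with iPS cells highest and the heart-derived libraries lowest, as for Cox7a1. Cox6b2 had 5.99 and 5.88 in the adult and neonatal libraries, 7.20, 7.76 and 7.31 in the cultures with both agents, with NRG-1 and with DMSO, and 8.09 in iPS cells. The heart-derived libraries stood apart at the low end, 4.3-fold and 4.61-fold below iPS cells for adult and neonatal, while the cultures lay between, at -0.89, -0.33 and -0.78 from it. Its partner Cox6b1 spanned only 9.22 with DMSO and NRG-1 to 9.64 in the adult library. Cox7b2 never reached the table median, at 2.42 and 2.92 in the adult and neonatal libraries, 2.90, 2.25 and 2.55 in the cultures with both agents, with NRG-1 and with DMSO, and 4.62 in iPS cells, so no fold is given for it. Cox8c lay between 2.69 and 3.24 in the 6 libraries. The defining testis genes Tnp1, Prm1 and Ldhc were below the table median in every library.

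**Figure D3:**
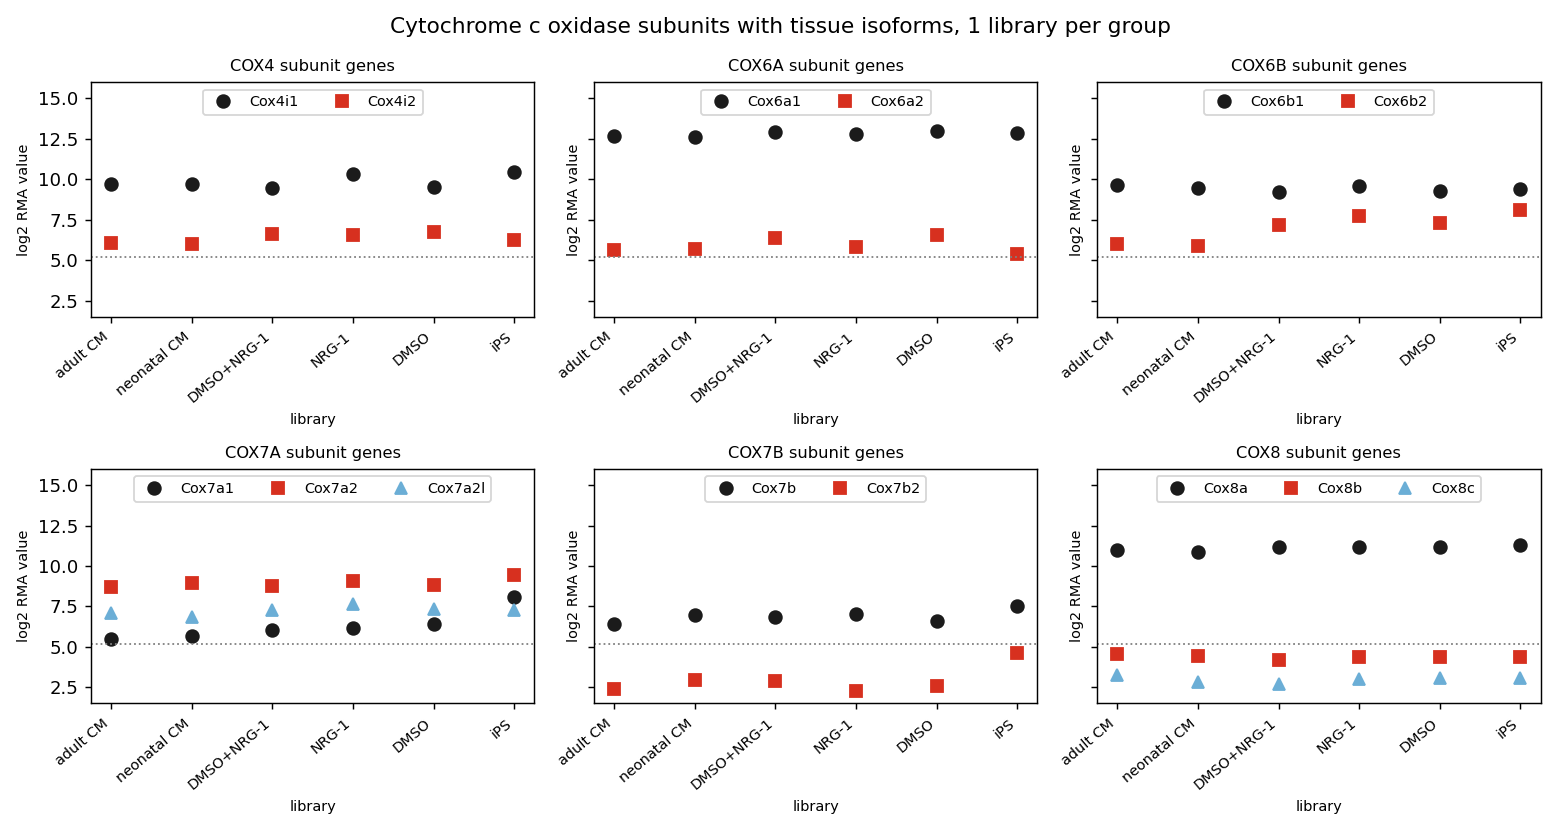
Log2 RMA value of each complex IV isoform gene (symbols) in the 6 libraries, 1 panel per subunit, with the table median of 5.20 as a dotted line and 1 library per group. Cox7a1 is highest in iPS cells (8.07), Cox6a2 in the DMSO culture (6.56), and Cox6b2 is lowest in the heart-derived libraries (5.99 and 5.88). Heights of different genes are not comparable.

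Among the subunits without a muscle form here, Cox4i1 and Cox5a, which join early in the assembly of complex IV, were both highest in iPS cells and next highest with NRG-1 alone. Cox4i1 had 9.72 in the adult library, 9.72 in the neonatal library, 9.49 with DMSO and NRG-1, 10.34 with NRG-1 alone, 9.55 with DMSO alone and 10.43 in iPS cells. iPS cells and the NRG-1 culture were high and the other 4 libraries lay close together below them. Cox5a had 9.84 and 9.71 in the adult and neonatal libraries, 9.24, 10.04 and 9.28 in the cultures with both agents, with NRG-1 and with DMSO, and 10.62 in iPS cells, with the lowest values in the cultures that held DMSO, 2.61-fold and 2.53-fold below iPS cells with both agents and with DMSO alone. Cox4i2 differed from iPS cells by -0.16, -0.23, 0.41, 0.30 and 0.54 in the adult, neonatal, both-agent, NRG-1 and DMSO libraries, so it was higher in the cultures and lower in the heart-derived libraries, where the housekeeping shift turns the sign.

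Cox5b, which binds a zinc ion, and Cox8a, a small membrane subunit, differed from iPS cells by no more than -0.52 and -0.46. Cox7b, needed for assembly of the complex, rests on probe sets that disagree. Its brighter probe set had 9.29 and 9.03 in the adult and neonatal libraries, 8.42, 8.77 and 8.41 with both agents, NRG-1 and DMSO, and 10.02 in iPS cells, whereas the dim one was lowest in the adult library (3.58 against 5.09 in iPS cells). The mean of both, used throughout, gave -1.12 for adult minus iPS, and the brighter one alone gave -0.73. Cox7c was near the table median, at 4.38 and 5.30 in the adult and neonatal libraries, 4.34, 4.16 and 4.37 in the cultures with both agents, with NRG-1 and with DMSO, and 5.37 in iPS cells, and passed the filter only in comparisons with the neonatal or iPS library, with its other values below the table median.

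Promoter sequences were read for the members to describe what the genes carry at their starts. RefSeq windows of build GRCm38.p6, 250 bases before to 50 bases after the gene start, were at hand for 72 members (77 windows). Motifs were searched on both strands as exact letters: GCATGCGC for NRF1, a known activator of respiratory chain genes, CCGGAAG for ETS factors such as GABPA, AAGATGGC for YY1 and TCAAGGTCA for the estrogen-related receptors. The NRF1 letters were in 12 of 77 member windows (15.6%) and in 2.71% of all 32851 windows. A longer 10-letter form of it was in 7 (9.09%, all windows 0.971%). The ETS letters were in 19 (24.7%, all windows 8.86%), the YY1 letters in 10 (13%, all windows 2.75%) and the receptor letters in 2 (2.6%, all windows 0.423%). The ETS and YY1 letters can share bases, which happened in 0 of the members, and a match is a description of the sequence only.

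The 250 bases before the gene start are printed for the 2 isoforms that were much lower in the heart-derived libraries than in iPS cells, and for a widely expressed isoform and an ATP synthase gene that carry the NRF1 letters; capitals mark motif matches. Cox7a1 lies at chr7:30183921-30184170 on the plus strand, Cox6b2 at chr7:4753095-4753344 on the minus strand, Cox6a1 at chr5:115348959-115349208 on the minus strand and Atp5k at chr5:108434400-108434649 on the minus strand.
Cox7a1: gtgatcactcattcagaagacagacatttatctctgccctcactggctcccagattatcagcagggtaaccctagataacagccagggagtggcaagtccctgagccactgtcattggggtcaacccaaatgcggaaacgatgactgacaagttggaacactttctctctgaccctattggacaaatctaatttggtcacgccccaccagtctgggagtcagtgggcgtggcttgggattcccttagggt
Cox6b2: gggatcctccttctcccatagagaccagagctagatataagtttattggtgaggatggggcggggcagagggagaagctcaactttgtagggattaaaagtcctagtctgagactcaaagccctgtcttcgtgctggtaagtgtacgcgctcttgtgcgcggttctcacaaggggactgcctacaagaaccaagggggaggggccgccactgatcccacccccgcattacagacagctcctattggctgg
Cox6a1: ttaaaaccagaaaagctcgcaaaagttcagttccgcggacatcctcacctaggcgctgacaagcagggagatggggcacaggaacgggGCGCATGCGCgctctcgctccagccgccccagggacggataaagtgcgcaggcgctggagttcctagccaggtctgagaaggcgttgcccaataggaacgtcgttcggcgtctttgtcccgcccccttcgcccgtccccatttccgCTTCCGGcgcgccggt
Atp5k: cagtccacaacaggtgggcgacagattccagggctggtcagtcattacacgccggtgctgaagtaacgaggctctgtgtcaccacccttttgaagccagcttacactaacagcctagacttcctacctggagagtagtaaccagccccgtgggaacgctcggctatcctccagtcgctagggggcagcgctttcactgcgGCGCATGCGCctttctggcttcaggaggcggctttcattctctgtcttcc
Neither Cox7a1 nor Cox6b2 held any of the 4 motifs. Most member windows lack each motif, since the most frequent, the ETS letters, was in 24.7% of them. Cox6a1 held the NRF1 and ETS letters, and Atp5k the NRF1 letters here and the ETS letters in the 50 bases after its start. These genes were printed because they hold the NRF1 letters, so their contrast with Cox7a1 and Cox6b2 was set by that choice.

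Ndufa4l2 had the largest positive difference from iPS cells of all members in the adult library and in each culture. Ndufa4 is a small protein found with complex IV, and its paralog Ndufa4l2 is a target of the hypoxia factor HIF-1 known to restrain complex I activity. Ndufa4l2 had 7.06 in the adult library, 5.28 in the neonatal library, 7.88 with DMSO and NRG-1, 7.39 with NRG-1 alone, 7.67 with DMSO alone and 6.22 in iPS cells. All 3 cultures and the adult library were above iPS cells and the neonatal library was below them (-0.94). Against iPS cells it was 3.16-fold, 2.26-fold and 2.74-fold higher with both agents, with NRG-1 and with DMSO, and its adult minus neonatal difference of 1.78 was the only one past 2-fold between those libraries. Ndufa4 itself had 10.62 and 10.60 in the adult and neonatal libraries, 9.99, 10.23 and 10.02 in the cultures with both agents, with NRG-1 and with DMSO, and 10.68 in iPS cells, lower in the cultures.

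Other hypoxia targets were read beside it. Of 10 measured, 4, 5 and 4 were at least 2-fold higher than in iPS cells with both agents, with NRG-1 and with DMSO, and 1, 2 and 1 lower. Of all genes passing the filter, 13%, 11.3% and 13.1% were higher and 13.1%, 14.5% and 13.3% lower. Adm, a peptide that widens vessels, differed from iPS cells by 4.17, 4.87, 3.91, 3.29 and 4.10 in the adult, neonatal, both-agent, NRG-1 and DMSO libraries, and Pfkfb3, which drives glycolysis, by 0.97, 1.86, 3.62, 2.80 and 3.56. In the cultures with both agents, NRG-1 and DMSO, the oxygen sensor Egln3 differed by 2.64, 2.53 and 2.43, Vegfa by 2.57, 2.30 and 2.61, and Pdk1, which restrains pyruvate entry into the tricarboxylic acid cycle, by -1.87, -1.70 and -1.60, with Pdk1 below the table median in every library but iPS cells. For adult minus neonatal, Vegfa differed by 1.33 and Egln3 by 0.23. The list thus moved both ways, with medians against iPS cells of 0.67, 0.78 and 0.85 in the cultures, -0.05 in the adult library and -0.49 in the neonatal library.

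Complex I, the entry point for electrons from NADH, was slightly lower than in iPS cells in most of its 32 subunits. The class medians were -0.20, -0.19, -0.43, -0.20 and -0.35 for the adult, neonatal, both-agent, NRG-1 and DMSO libraries, with 25, 24, 31, 19 and 29 members lower. The subunits furthest apart were lowest with NRG-1 alone. Ndufa10, an accessory subunit, had 10.08 in the adult library, 10.34 in the neonatal library, 9.63 with DMSO and NRG-1, 9.08 with NRG-1 alone, 9.67 with DMSO alone and 10.50 in iPS cells. The heart-derived libraries were near iPS cells and the NRG-1 culture was lowest, 2.67-fold below iPS cells.

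The iron-sulfur subunit Ndufs8 had 9.80 and 9.71 in the adult and neonatal libraries, 9.03, 8.72 and 9.21 in the cultures with both agents, with NRG-1 and with DMSO, and 9.93 in iPS cells, in the same order of cultures. Ndufc1, an accessory subunit, had 7.54 and 7.43 in the adult and neonatal libraries, 7.06, 6.68 and 7.09 in the cultures with both agents, with NRG-1 and with DMSO, and 7.93 in iPS cells. Ndufs1, the largest iron-sulfur subunit, had 8.75 and 8.77 in the adult and neonatal libraries, 8.22, 8.15 and 8.28 in the cultures with both agents, with NRG-1 and with DMSO, and 9.19 in iPS cells, and there the 3 cultures lay close together. These 3 genes differed from iPS cells by -1.20, -1.25 and -1.04 with NRG-1 alone. Ndufv2, an iron-sulfur subunit of the NADH-binding module, was lowest with both agents, at 8.50 against 9.51 in iPS cells. On the other side, Ndufa3 had 10.44 in the neonatal library and between 9.92 and 10.06 in the others, 9.93 in iPS cells among them.

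The 8 Ndufaf genes encode factors that help build complex I and are not part of it. Their medians against iPS cells were -0.46, -0.22, -0.72, -0.64 and -0.47 for the adult, neonatal, both-agent, NRG-1 and DMSO libraries, and all 8 were lower in each culture. Ndufaf5, which modifies the core subunit Ndufs7, had 6.18 in the adult library, 6.26 in the neonatal library, 5.43 with DMSO and NRG-1, 5.24 with NRG-1 alone, 5.80 with DMSO alone and 6.46 in iPS cells. The cultures were the 3 lowest, with differences from iPS cells of -1.03, -1.22 and -0.66 with both agents, NRG-1 and DMSO. Ndufaf2, which joins a late assembly intermediate, was highest in the neonatal library (6.46) and lowest with both agents (5.40), with 5.98 in iPS cells. Ndufaf3 was lowest in the adult library, at 6.94 against 7.90 in iPS cells. Its assembly partner Ndufaf4 was highest in the neonatal library (7.66) and lowest with both agents (6.35), with 7.26 in iPS cells.

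Complex II, succinate dehydrogenase, also serves the tricarboxylic acid cycle. Its 4 genes were lower than in iPS cells in every library except Sdhd in the neonatal one (0.11), as deposited. Sdhc, a membrane anchor, varied most. It had 8.65 in the adult library, 8.35 in the neonatal library, 7.80 with DMSO and NRG-1, 7.50 with NRG-1 alone, 7.88 with DMSO alone and 8.72 in iPS cells. The cultures were all below the heart-derived libraries, and the NRG-1 value was 2.32-fold below iPS cells. Sdha, the flavoprotein that oxidises succinate, differed from iPS cells by -0.31, -0.53, -0.47, -0.67 and -0.47 in the adult, neonatal, both-agent, NRG-1 and DMSO libraries, and the iron-sulfur subunit Sdhb by -0.18, -0.13, -0.54, -0.52 and -0.46. Sdhd, the other anchor, stayed between 9.39 in the adult and 9.86 in the neonatal library. Under the housekeeping shift, which raises the comparisons with iPS cells by 0.22 to 0.38, negative differences smaller than the shift turn positive.

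Complex III, cytochrome bc1, had class medians of -0.12, -0.19, -0.24, -0.08 and -0.18 against iPS cells in the same order. The core protein Uqcrc1 differed from iPS cells by -0.75, -0.53, -0.87, -0.88 and -0.85, so iPS cells were highest and the 5 other libraries lay close together. Uqcrc2, the other core protein, set NRG-1 alone apart, at 9.55, while the other cultures had 9.98 and 10.04 with both agents and with DMSO, and iPS cells 10.22. The small subunit Uqcrq did so in the other direction, with 6.67 and 6.05 in the adult and neonatal libraries, 6.63, 7.32 and 6.61 in the cultures with both agents, with NRG-1 and with DMSO, and 6.68 in iPS cells. Uqcrfs1, the Rieske iron-sulfur protein, stayed between 7.06 and 7.41 in the 6 libraries.

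The 17 ATP synthase genes differed from iPS cells by medians of -0.30, -0.26, -0.46, -0.41 and -0.56 in the adult, neonatal, both-agent, NRG-1 and DMSO libraries, and none was 2-fold apart. The catalytic subunit Atp5b had 12.23 in the adult library, 12.29 in the neonatal library, 12.16 with DMSO and NRG-1, 11.82 with NRG-1 alone, 12.16 with DMSO alone and 12.73 in iPS cells. The alpha subunit Atp5a1 had 11.08 and 11.17 in the adult and neonatal libraries, 10.72, 10.78 and 10.88 in the cultures with both agents, with NRG-1 and with DMSO, and 11.53 in iPS cells. Both were highest in iPS cells. Of the 3 genes that encode the same c-ring protein, Atp5g1 and Atp5g2 were highest in iPS cells, while Atp5g3 had 8.66 and 9.19 in the adult and neonatal libraries, 8.30, 8.51 and 8.26 in the cultures with both agents, with NRG-1 and with DMSO, and 8.96 in iPS cells and was highest in the neonatal library.

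Atp5k and Atp5mpl were the synthase genes furthest apart between NRG-1 alone and each culture with DMSO. Atp5k, the e subunit that helps pair synthases into dimers, had 8.13 in the adult library, 8.47 in the neonatal library, 7.95 with DMSO and NRG-1, 8.77 with NRG-1 alone, 7.82 with DMSO alone and 8.60 in iPS cells. The NRG-1 culture was highest, above iPS cells, and both DMSO cultures were lowest. Atp5mpl, a small proteolipid of the synthase, had 7.61 and 7.59 in the adult and neonatal libraries, 6.84, 7.51 and 6.69 in the cultures with both agents, with NRG-1 and with DMSO, and 7.44 in iPS cells, again with the DMSO cultures apart at the low end. Atp5e, the epsilon subunit, averaged 7.35, 7.87 and 7.32 with both agents, NRG-1 and DMSO, against 7.63 in iPS cells.

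The cultures at day 7 were then compared with each other. No culture lacked both agents, so NRG-1 alone minus DMSO alone cannot show what either agent adds. The comparisons with the both-agent culture show an addition only in the presence of the other agent. The chain as a whole was at almost the same level, and NRG-1 alone stood apart from both DMSO cultures in particular subunits. For NRG-1 alone minus DMSO alone, the member median was 0.03 (all genes -0.01), or -0.13 under the housekeeping shift, which moves all genes by -0.16. None of 82 members passing the filter was 2-fold higher (all genes: 0.36%) or lower (all genes: 1.78%). At 1.5-fold, 9 members (11%) were higher (all genes: 3.2%) and 2 (2.44%) lower (all genes: 7.01%). The SD of the members' differences was 0.38, that of all genes 0.35, and the spread between probe sets for one gene 0.30.

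The 9 higher members were spread over 4 complexes. They were Ndufa1 (0.99), Atp5k (0.95), Atp5mpl (0.83), Cox4i1 (0.79), Ndufc2 (0.77), Cox5a (0.76), Uqcrq (0.71), Ndufa2 (0.61) and Ndufa6 (0.59). Ndufa1, an X-linked subunit of the complex I membrane arm, had 8.08 in the adult library, 7.90 in the neonatal library, 7.37 with DMSO and NRG-1, 8.34 with NRG-1 alone, 7.34 with DMSO alone and 8.32 in iPS cells. The NRG-1 culture matched iPS cells, and both DMSO cultures were about 1 unit below. Ndufc2, another membrane arm subunit, had 9.11 with both agents, 10.06 with NRG-1 and 9.28 with DMSO, against 9.89 in iPS cells. The 2 lower members were Cox6a2 (-0.71) and Ndufa10 (-0.59).

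**Figure D4:**
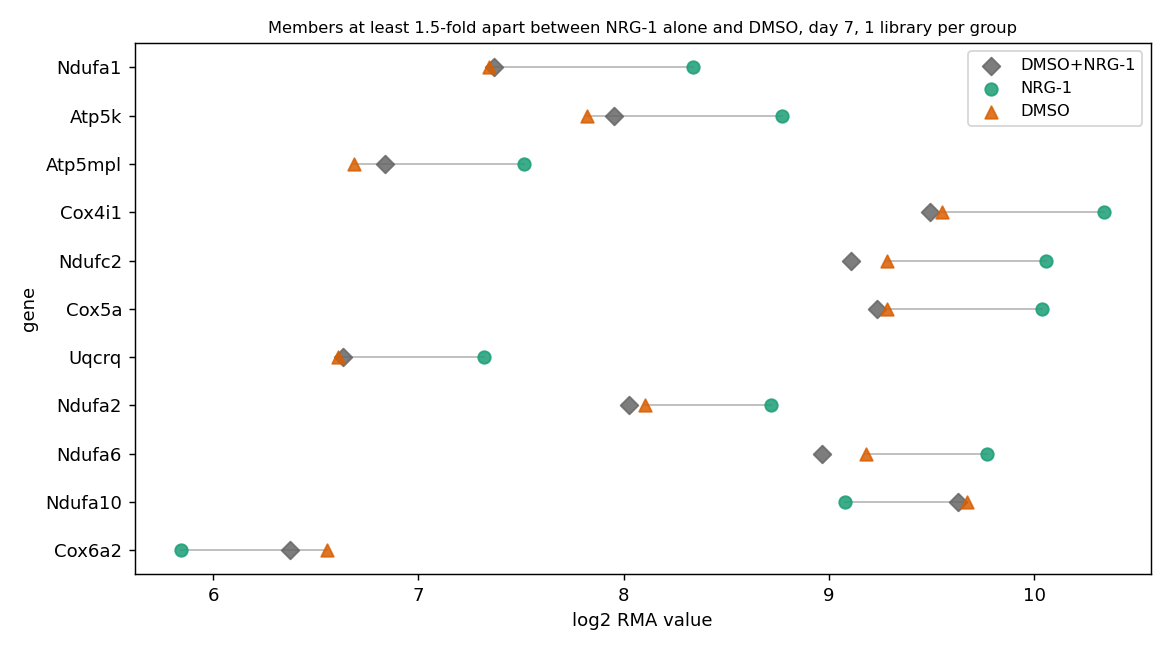
Log2 RMA value of the 11 members at least 1.5-fold apart between NRG-1 alone (circles) and DMSO alone (triangles), with the culture given both agents as diamonds and 1 library per group. For each gene the diamond lies closer to the triangle, as for Ndufa1 at 7.37 with both agents, 8.34 with NRG-1 and 7.34 with DMSO.

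Adding NRG-1 to DMSO was accompanied by little difference. For both agents minus DMSO alone the median was -0.04 (all genes -0.01) and the SD 0.18 (all genes 0.25). The differences were small but mostly of 1 sign, with 62 of the 89 members lower (all genes: 51.5% lower). No member was 2-fold higher (all genes: 0.0455%) or lower (all genes: 0.053%). At 1.5-fold, 0 were higher (all genes: 0.727%) and 1 lower (all genes: 0.765%), the assembly factor Ndufaf4, with 6.35 with both agents against 6.94 with DMSO alone. Both cultures share the DMSO treatment, so a comparison with NRG-1 alone was also made.

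For both agents minus NRG-1 alone, which asks what DMSO adds to NRG-1, the median was -0.08 (all genes 0.01). No member was 2-fold higher (all genes: 1.08%) or lower (all genes: 0.293%). At 1.5-fold, 0 members were higher (all genes: 5.64%) and 11 (13.4%) lower (all genes: 2.66%). The lowest were Ndufa1 (-0.97), Ndufc2 (-0.95), Cox4i1 (-0.85), Atp5k (-0.82), Ndufa6 (-0.80) and Cox5a (-0.80), and the others were Ndufa2, Uqcrq, Atp5mpl, Uqcrh and Ndufv2. This comparison and that of NRG-1 with DMSO rest on the same NRG-1 library, so their values are not independent.

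Adult and neonatal libraries were also compared. They differed in cardiomyocyte, fibroblast and macrophage markers and in Xist, so age cannot be told apart from cell content or sex here. The levels of the chain were close in both. The median of the adult minus neonatal differences was -0.02 (all genes 0.00), with 46 members lower and 43 higher (all genes: 49.9% lower). With cyclic loess between the arrays the median was 0.02, so no direction is given. Only Ndufa4l2 was 2-fold higher (all genes: 2.52%) and none was lower (all genes: 2.92%). At 1.5-fold, 2 of 83 were higher (all genes: 7.72%), Ndufa4l2 and Uqcrq (6.67 in adult and 6.05 in neonatal), and 2 lower (all genes: 9.54%), Cox7c and the complex I subunit Ndufb3 (6.54 in adult and 7.31 in neonatal). The muscle forms Cox6a2, Cox7a1 and Cox8b differed by -0.08, -0.18 and 0.15.

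The chain also has subunits encoded in mitochondrial DNA, of which 10 were measured. These probe sets are near the top of the scale (the highest value in the table is 14.26). Against iPS cells their medians were 0.16, -0.20, -0.03, 0.04 and -0.04 for the adult, neonatal, both-agent, NRG-1 and DMSO libraries. For adult minus neonatal all 10 were higher, by 0.10 to 0.52, while 49.9% of all genes were lower. ND6, a complex I subunit encoded on the light strand, had 11.66 in the adult library, 11.17 in the neonatal library, 12.80 with DMSO and NRG-1, 12.56 with NRG-1 alone, 12.75 with DMSO alone and 11.54 in iPS cells. The 3 cultures were about 1 unit above the other libraries, whereas the next largest positive difference from iPS cells in any culture was 0.19, for COX1 with NRG-1. The other 9 were ND1, ND2, ND3, ND4, ND4L, ND5, CYTB, COX1 and COX3.

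The tricarboxylic acid cycle supplies NADH and succinate to the chain. Its list here also holds Pdha1, Pdhb and Dlat of the pyruvate dehydrogenase complex. In the cultures this list had lower medians than the chain. Its 16 measured genes had medians of -0.20, -0.10, -0.67, -0.98 and -0.65 against iPS cells in the same order of libraries. Of these genes, 6, 8 and 5 were at least 2-fold lower with both agents, NRG-1 and DMSO. In each heart-derived library 1 was, and that gene was Pdhb. The share of all genes 2-fold lower was 14.1%, 11.2%, 13.1%, 14.5% and 13.3% in the adult, neonatal, both-agent, NRG-1 and DMSO comparisons. Idh3a, the catalytic subunit of NAD-dependent isocitrate dehydrogenase, had 9.80 in the adult library, 10.06 in the neonatal library, 8.33 with DMSO and NRG-1, 7.78 with NRG-1 alone, 8.39 with DMSO alone and 9.95 in iPS cells. The cultures were far below all other libraries. Pdha1, of the pyruvate dehydrogenase complex, differed by -1.13, -1.26 and -1.23 in the cultures, and its partner Pdhb by -1.17, -1.25, -1.23, -1.55 and -1.19 in all 5. Suclg2, of succinyl-CoA ligase, differed by -0.68, -0.92, -1.57, -1.44 and -1.64 and Idh2, the NADP-dependent isocitrate dehydrogenase, by -0.73, -0.03, -1.30, -1.59 and -1.50. For NRG-1 alone minus DMSO alone, 13 of 16 were lower (all genes: 51.8%), with -1.14 for Idh3b. The difference between this list and the chain was not tested.

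Assembly factors of complexes II to V, 31 of them, had medians between -0.26 in the adult and -0.09 in the neonatal library. Lrpprc, which stabilises mitochondrial messenger RNA, differed from iPS cells by -1.12, -0.80, -1.30, -1.43 and -1.31 in the adult, neonatal, both-agent, NRG-1 and DMSO libraries, and Cox17, a copper chaperone for complex IV, by -0.90, -1.11, -1.01, -0.71 and -1.02. Lyrm7, which helps insert the Rieske protein into complex III, differed by -1.16, -1.80, -1.30, -0.97 and -1.12, though it was below the table median in the neonatal and both-agent libraries. Cox15, of heme A synthesis, differed by -0.35, -0.40, -0.56, -1.32 and -0.62, lowest with NRG-1 alone. Ttc19, a complex III factor, was higher, by 1.04 in the adult library and 0.58 to 0.68 in the cultures. The 16 electron carrier and ubiquinone genes had medians of -0.28, -0.25, -0.63, -0.45 and -0.56. Among them Coq5, a ubiquinone methyltransferase, set NRG-1 alone apart, with 9.84 with both agents, 8.09 with NRG-1 and 9.99 with DMSO, against 10.27 in iPS cells. Dhodh, a pyrimidine synthesis enzyme that feeds electrons to ubiquinone, differed from iPS cells by -1.18, -0.50, -1.67, -1.49 and -1.73, and Gpd2, of the glycerol phosphate shuttle, by -1.48, -1.14, -0.95, -1.42 and -1.06. The testis cytochrome Cyct reached 5.17 in iPS cells and 3.51 to 3.68 elsewhere, all below the table median, and the somatic cytochrome c gene Cycs lay between 7.52 and 8.39.

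Carriers that exchange ATP and ADP across the inner membrane differed by isoform. Slc25a4, the form of heart and muscle, had 10.54 and 10.43 in the adult and neonatal libraries, 9.88, 9.87 and 9.88 in the cultures with both agents, with NRG-1 and with DMSO, and 9.96 in iPS cells, so the heart-derived libraries were the highest. Slc25a5, the form of dividing cells, had 11.70 and 11.92 in the adult and neonatal libraries, 10.51, 10.25 and 10.77 in the cultures with both agents, with NRG-1 and with DMSO, and 12.27 in iPS cells, with all cultures below the heart-derived libraries. Ckmt2, the muscle mitochondrial creatine kinase, was dim in every library, at most 4.10. Slc25a31, a germ-cell form, had 5.99 in the adult and 4.11 in the neonatal library, and 5.87 in iPS cells. Ckmt1, the widely expressed mitochondrial creatine kinase, differed from iPS cells by -0.37, -0.45, 0.62, 0.54 and 0.82 in the adult, neonatal, both-agent, NRG-1 and DMSO libraries, and the outer membrane channel Vdac3 by -0.07, 0.04, -0.58, -0.77 and -0.64.

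Among the 19 regulators of mitochondrial gene expression, the coactivator Ppargc1a (PGC-1alpha) differed most. It had 3.66 in the adult library, 4.96 in the neonatal library, 6.42 with DMSO and NRG-1, 5.48 with NRG-1 alone, 7.22 with DMSO alone and 3.47 in iPS cells. The adult library lay near iPS cells, and the cultures with DMSO were highest. The differences from iPS cells were 2.95, 2.00 and 3.75 with both agents, NRG-1 and DMSO. Ppargc1a was below the table median in iPS cells and in both heart-derived libraries. Tfb1m, which modifies mitochondrial ribosomal RNA, differed by -1.80, -1.51, -2.06, -2.44 and -1.81 in the adult, neonatal, both-agent, NRG-1 and DMSO libraries, and Esrrb, also a pluripotency factor, by -1.92, -1.84, -1.71, -1.96 and -1.84, Esrrb being below the table median in every library but iPS cells. The deacetylase Sirt1 was 2-fold lower only in the heart-derived libraries, with -2.28 and -1.86, against -0.57 to -0.69 in the cultures. Nrf1 differed by -0.95, -0.72, -0.78, -0.83 and -0.92, Gabpa by -0.72, -0.70, -0.84, -0.73 and -0.87 and Tfam, which packages mitochondrial DNA, by -0.76, -0.98, -0.84, -0.74 and -0.71. The other 12 regulators (Ppargc1b, Pprc1, Esrra, Esrrg, Gabpb1, Tfb2m, Polrmt, Yy1, Ppara, Ppard, Nfe2l2 and Sirt3) were within 2-fold of iPS cells except Pprc1 in the adult library (-1.02), and Nfe2l2 reached 0.98 in the neonatal library.

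**Figure D5:**
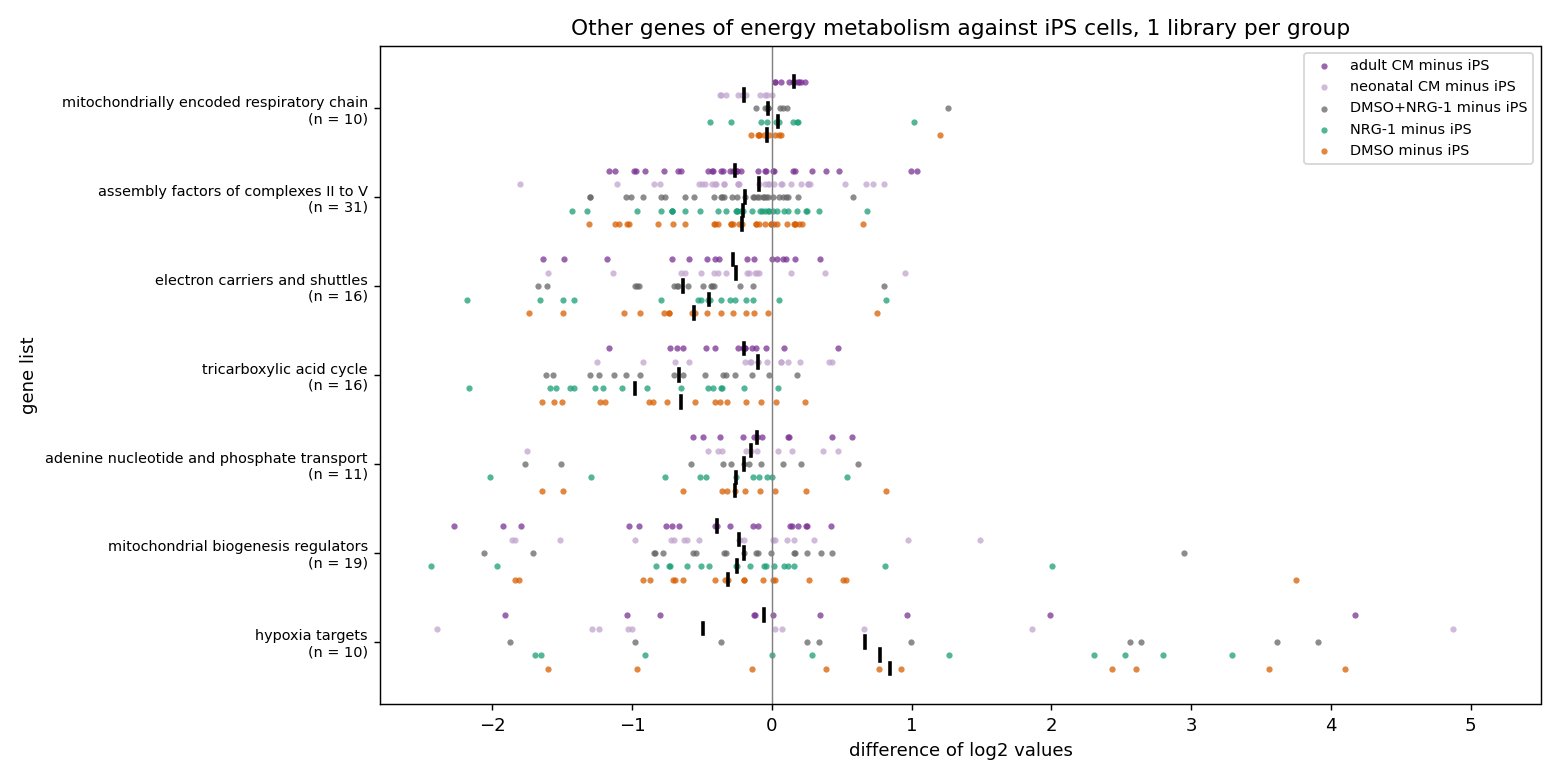
Difference of log2 values from iPS cells for other genes of energy metabolism (points), by list and library, with list medians as bars and 1 library per group. The tricarboxylic acid cycle list, which includes pyruvate dehydrogenase genes, has the lowest medians in the cultures (-0.98 with NRG-1). Ppargc1a is the regulator furthest to the right (3.75 with DMSO).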

How the data were processed

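Total RNA from 6 libraries, 1 per group, was hybridised to Affymetrix Mouse Gene 2.0 ST arrays. The deposited values are log2 expression per probe set, made by the authors with RMA, per the submitters' processing notes; no version or setting is stated there. The sorted values of any 2 libraries differed by at most 0.285 and library medians lay between 5.13 and 5.26. Of 41345 probe sets, 23521 name 1 gene in GEO's platform annotation, 1814 name several and 16010 are unnamed here. Probe sets of 1 gene were averaged, giving 22180 genes, and 9 of the 89 members rest on several probe sets. All 89 matched RefSeq by Entrez gene identifier with the same symbol. Differences between libraries were taken on the log2 scale, and a gene counted where the higher value reached the table median of 5.20, at 2-fold. The count at 1.5-fold was added after seeing that few members passed 2-fold. With 1 library per group no test or error between replicates exists, so precision is limited by having so few arrays. The disagreement between probe sets of 1 gene is given instead. It is taken within the same libraries, so it cannot stand for an error between replicates.

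Members, gene lists and thresholds were chosen with earlier results of these data known. Genes named were all complex IV isoforms, complex II, members past 2-fold, the 4 of widest range per class, Cox7b for its disagreeing probe sets, and from other lists up to 4 with the largest differences and every mitochondrially encoded gene and regulator. Members past 1.5-fold, and others outside this rule, were picked for naming once values were known. Alternatives tried were leaving out the filter, a filter at the 75th percentile (6.93), the brightest probe set, cyclic loess and a shift to equal medians of 10 housekeeping genes. The counting was tested on simulated data. Promoter windows are from RefSeq, build GRCm38.p6. Software was Python 3.11.15, pandas 2.3.3, numpy 2.4.6, matplotlib 3.10.9, R 4.3.3 and limma 3.58.1.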

Additional observations from a re-analysis of the deposited data

How the results depend on the processing

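No paired analysis was possible because each group has 1 library, and for the same reason no library could be left out as a replicate. The member medians, recomputed with the brightest probe set, cyclic loess and the housekeeping shift, moved by less than the spread between members, but several changed sign, as given with the comparisons. The filters were tried on counts only. Counts of members at least 2-fold apart that moved by more than 1.5 times, or away from 0, are given here; smaller moves, such as 8 members lower with NRG-1 alone becoming 6 under the stricter filter and 9 without a filter, are not listed. With the filter at the 75th percentile, 1 member was higher with DMSO and NRG-1 and 1 with DMSO alone, each against iPS cells, and 3 were lower with DMSO and NRG-1. With cyclic loess, 1 was higher with DMSO and NRG-1 against iPS cells, and 1 was higher with NRG-1 alone against DMSO alone. With the housekeeping shift, 1 was higher in the adult library against iPS cells, and 2, 3 and 1 were lower with DMSO and NRG-1, with NRG-1 alone and with DMSO alone. The brightest probe set moved Cox7b to -1.60, -1.25 and -1.61 against iPS cells with both agents, NRG-1 and DMSO, and to 0.26 for adult minus neonatal, where the mean of its probe sets is below 0. The causes of these moves were not tested, beyond the fewer genes kept by the stricter filter. Several of the housekeeping genes themselves differ widely between libraries, B2m with 12.48 and 12.53 in the adult and neonatal libraries, and 9.07 in iPS cells.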
